A study of Rattus norvegicus with 20 samples.

Results

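The genes described here encode the matrix metalloproteinases (MMPs), their tissue inhibitors (TIMPs), the ADAM and ADAMTS metalloproteinases, and the urokinase and tissue-type plasminogen activators with the urokinase receptor. They were chosen by symbol (Mmp, Timp, Adam or Adamts followed by a digit, or Plau, Plaur or Plat) among array probe sets that carry 1 gene symbol, keeping for each symbol the probe set whose mean over the 20 arrays was highest. Of 14506 symbols measured, 57 were members, comprising 21 Mmp, 4 Timp, 18 Adam and 11 Adamts genes and the 3 plasminogen activator genes. The study asked how epithelial cells from several stratified and pseudostratified epithelia change when they are placed in the environment of hair-bearing skin. The donors were Sprague-Dawley rats of postnatal day 200 with an act-EGFP transgene, and the tissues were the trachea, the footpad, the esophagus, the vagina and the oral mucosa. Every group carries the transgene. Before transplantation, cells dissociated with trypsin were cultured on a lethally irradiated mouse 3T3-J2 fibroblast feeder. After transplantation, cells of the same origin had been placed into newborn mouse skin grafted on nude mice, and months later were recovered and cultured in the same way. In both states EGFP-positive cells were sorted, a gate that removes the mouse feeder but not rat cells of another type, and RNA of 2 cultures per tissue and state was hybridised to 20 Affymetrix Rat Gene ST 1.0 arrays. The values therefore describe cultured cells and not cells within the graft. The arrays are duplicate cultures for which no separate animals are stated, so the p-values measure the spread between cultures only.

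MMPs are secreted or membrane-bound zinc proteases that cleave collagens, laminins, fibronectin and many non-matrix proteins, and most are made as inactive proenzymes that other proteases open. Urokinase bound to its receptor turns plasminogen into plasmin, which digests fibrin and activates several proMMPs, while TIMPs bind the active site of MMPs and of some ADAMs. ADAMs shed growth factors, cytokines and receptors from the cell surface, and ADAMTS proteins are secreted proteases of proteoglycans and procollagens. In epithelia these enzymes are best known from wound edges, where migrating keratinocytes make stromelysins, collagenase and urokinase.

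Values are RMA values on the log2 scale, and levels are compared between groups within a probe set, never between probe sets. A change is the mean of the 2 arrays after minus the mean of the 2 arrays before transplantation, with the standard error of limma's fit over all 20 arrays. A gene was said to rise or fall where its Benjamini-Hochberg adjusted p over all 29215 probe sets was under 0.05 and its change was over 2-fold, or over 1 on the log2 scale. Array medians lay between 5.31 and 5.55, and the largest difference of a member between duplicate arrays was 1.39 (Mmp10, oral mucosa before). A low level is defined as under 4.77, below which the means of 40% of all probe sets lie. Of the 57 members, 25 had a mean below it (43.9%, against 31.1% of all symbols), and at this level a probe set may report background.

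In cell type markers, Krt14 and Tp63, which mark basal keratinocytes, were above the low level in all 10 groups. Krt15, a further basal keratin, fell in vagina (−3.57), esophagus (−3.34), oral mucosa (−1.12) and trachea (−1.08), and in footpad it rose, from 7.47 and 7.28 to 10.60 and 10.95. Epcam, an epithelial adhesion gene, rose in footpad by 3.00, from 7.75 and 7.78 to 10.75 and 10.78, and passed in no other tissue. Of 9 leukocyte markers, 6 (Ptprc, Lyz2, Itgam, Csf1r, Fcer1g and Cd3e) were below it in every group. Cd68, a macrophage marker found also in other cells, was above it in every group and fell in oral mucosa (−1.96) and vagina (−1.07). The summed leukocyte level was 371.2 to 376.7 in oral mucosa before and 179.4 to 290.6 over all other groups. Of 10 fibroblast markers, 8 fell in footpad, 7 in vagina and 6 in trachea, none passed in esophagus, and in oral mucosa Vim alone passed and rose by 5.10. Their summed level on the linear scale was 5010.9 and 5060.0 on the 2 footpad arrays before and 1907.9 and 1935.4 after, 3528.7 and 3841.9 before and 972.6 and 1013.6 after in vagina, and 3941.6 and 4337.7 before and 1707.9 and 1835.8 after in trachea. In esophagus the sums were 839.1 to 940.2 before and 832.2 to 912.9 after, and in oral mucosa 1736.0 to 1949.8 before and 4549.3 to 5031.7 after. Of the 10 fibroblast markers, Dcn and Lum were below the low level after transplantation in all 5 tissues, and Lum also before. Col1a1, Col1a2, Col3a1, Sparc, Thy1 and Vim were above the low level in all 10 groups. Fewer fibroblasts and less of these RNAs per cell cannot be told apart in bulk samples. The part of the epithelial, leukocyte and fibroblast markers in the member changes given below was not tested.

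**Figure D1:**
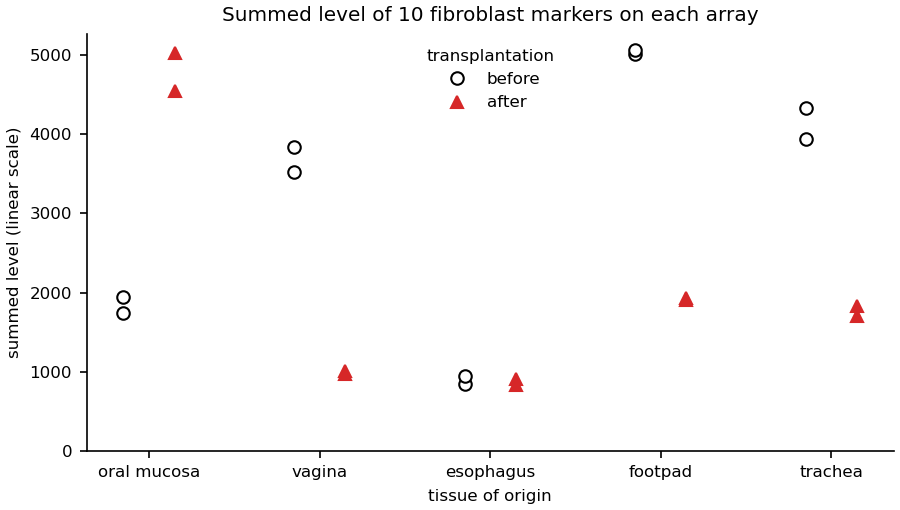
Summed linear level of 10 fibroblast markers on each array (open circles before, red triangles after transplantation) for the 5 tissues of origin. The sums were lower after transplantation in vagina, footpad and trachea, higher in oral mucosa, where Vim was the marker past the test, and overlapped in esophagus.

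Of the 57 members, 13 passed the test in at least 1 tissue (22.8%, against 14.3% of all symbols) and 44 in none. Over the 285 pairs of a member and a tissue there were 24 changes past the test, 19 lower and 5 higher after transplantation. In footpad 9 members fell and none rose, where 4.02% of all symbols fell and 5.25% rose. In vagina 5 members fell and 1 rose, against 2.41% and 0.62% of all symbols. In oral mucosa 2 members fell and 3 rose, against 3.07% and 1.91%. With each array centred on its median, this split was 3 lower and 2 higher. In esophagus 1 member fell and 1 rose, against 0.765% and 0.572%, and in trachea 2 fell and none rose, against 0.972% and 0.627%. The median change of the members was −0.21 in footpad (all symbols −0.06), −0.04 in vagina (0.04), 0.19 in oral mucosa (0.05), −0.04 in esophagus (−0.01) and −0.05 in trachea (0.00).

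**Figure D2:**
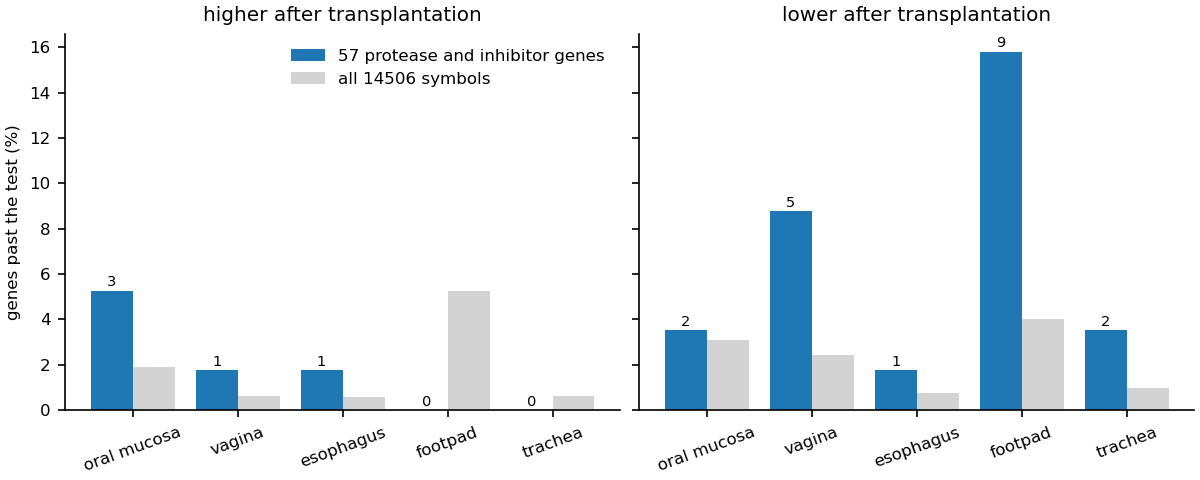
Percentage of the 57 protease and inhibitor genes (blue, with their number) and of all 14506 symbols (grey) that passed the test, higher (left) or lower (right) after transplantation, by tissue. In footpad 9 members fell and none rose, while among all symbols more rose than fell.

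Of these 13, 6 passed in 1 tissue, 4 in 2 tissues, 2 in 3 (Mmp2 and Adamts1) and 1 in 4 (Mmp3), and no member passed in all 5. Mmp3, Mmp12 and Timp1 rose in at least 1 tissue and fell in footpad. Averaged over the 5 tissues, with tissue as a block on the group means, no member and 0% of the 14506 symbols passed after adjustment by limma. At an unadjusted p under 0.05 there were 5 members, all lower on average, with a smallest adjusted p of 0.310. They were Adamts1 (−1.28 ± 0.39, SE), Adam28 (−0.82 ± 0.32), Mmp14 (−0.64 ± 0.18), Mmp19 (−0.59 ± 0.15) and Adam15 (−0.27 ± 0.08). The share of all symbols at this unadjusted cut was not counted, so these 5 cannot be set against the background.

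**Figure D3:**
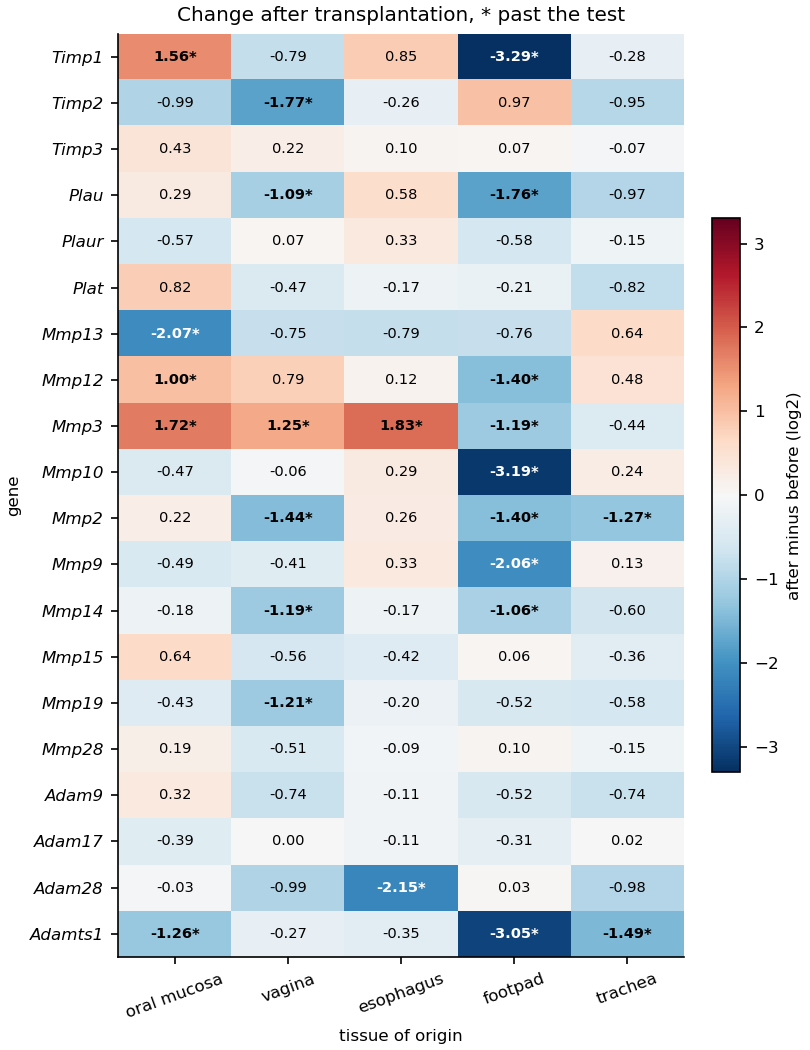
Change after transplantation (after minus before, log2, mean of 2 arrays each) of the 13 members past the test and of 7 further named members, by tissue of origin. Red is higher, blue is lower, and an asterisk marks an adjusted p under 0.05 with a change over 2-fold. Footpad holds 9 of the 24 marked changes, all lower.

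The inhibitors moved apart from each other. Timp1, which inhibits most secreted MMPs and binds proMMP-9, read 7.93 and 8.23 in footpad before and 4.98 and 4.60 after transplantation. It fell by 3.29 ± 0.18 (SE), or 9.76-fold, with an adjusted p of 7.58e-09. In oral mucosa Timp1 read 7.27 and 6.66 before and 8.51 and 8.54 after, a rise of 1.56 ± 0.18 (adjusted p = 2.01e-05). The groups did not overlap in either tissue, and the direction was opposite. The other tissues did not pass, with changes of 0.85 in esophagus, −0.79 in vagina and −0.28 in trachea. After transplantation the 8 arrays of the other tissues lay between 8.13 and 9.17, so that the footpad arrays were the lowest by more than 3 log2 units.

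Timp2, which also takes part in the activation of proMMP-2 by the membrane enzyme MMP-14, fell in vagina alone. It read 9.04 and 9.03 before and 7.31 and 7.22 after, a fall by 1.77 ± 0.12 (adjusted p = 1.74e-07). In oral mucosa and trachea its changes were −0.99 and −0.95, just under the 2-fold limit, and in footpad it was 0.97, from 7.83 and 8.06 to 8.77 and 9.07. In footpad the levels of Timp1 and Timp2 thus differed in opposite directions, although the change of Timp2 was under 2-fold. Timp3, a TIMP held in the matrix that also inhibits ADAM17, was below the low level in all 10 groups with changes of −0.07 to 0.43, none past the test.

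**Figure D4:**
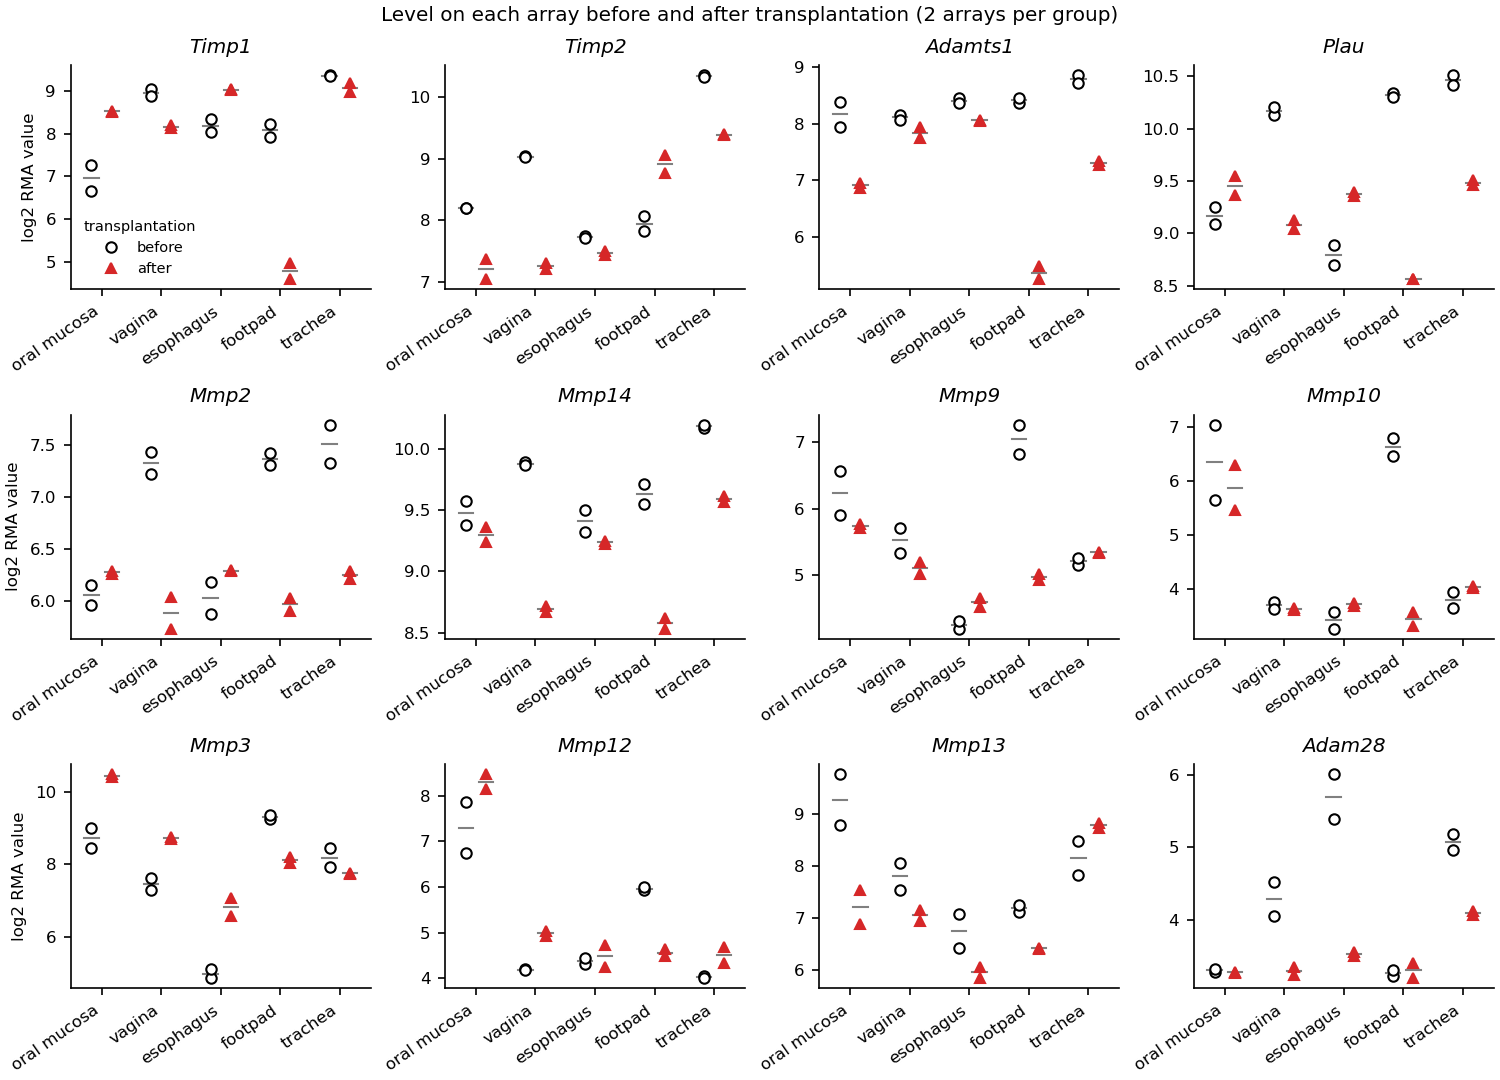
Log2 RMA value on each array (open circles before, red triangles after transplantation, grey bar the mean of 2 arrays) of 12 members by tissue of origin. Each panel has its own axis that does not start at 0. Timp1, Adamts1 and Mmp10 show their lowest arrays, or nearly so, in footpad after transplantation, and Mmp3 is higher after transplantation in 3 tissues and lower in footpad.

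Plau encodes urokinase, the plasminogen activator of migrating keratinocytes. In footpad Plau read 10.34 and 10.30 before and 8.57 and 8.56 after, a fall by 1.76 ± 0.09 (adjusted p = 5.04e-09). In vagina it went from 10.13 and 10.21 to 9.05 and 9.13, a fall by 1.09 ± 0.09 (adjusted p = 2.00e-06). Trachea showed a change of −0.97, while esophagus and oral mucosa showed 0.58 and 0.29, none over 2-fold. Its receptor gene Plaur changed by −0.58 to 0.33 and passed in no tissue. Plat, the tissue-type activator, also passed in none, with values of 0.82 in oral mucosa and −0.82 in trachea at either end.

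The stromelysins and the collagenase genes include a cluster on chromosome 8. In the RefSeq annotation of the rat assembly GRCr8, the protein-coding genes run in the order Mmp13, Mmp12, Mmp3, Mmp1, Mmp10, Mmp8, Mmp27, Mmp20 and Mmp7, with 1 other gene between Mmp12 and Mmp3. Mmp13, Mmp12, Mmp3 and Mmp10 passed the test in at least 1 tissue. The 250 bases upstream of their RefSeq start sites are printed because these neighbouring genes share sequence motifs there while their changes differed. All 4 lie on the plus strand, at chr8:12782579-12782828 (Mmp13), chr8:12866402-12866651 (Mmp12), chr8:12925031-12925280 (Mmp3) and chr8:12974457-12974706 (Mmp10) of GRCr8, and run 5′ to 3′ towards the start. Capitals mark the AP-1 motif (TGAGTCA) and the TATA motif (TATAAA) on either strand.
Mmp13: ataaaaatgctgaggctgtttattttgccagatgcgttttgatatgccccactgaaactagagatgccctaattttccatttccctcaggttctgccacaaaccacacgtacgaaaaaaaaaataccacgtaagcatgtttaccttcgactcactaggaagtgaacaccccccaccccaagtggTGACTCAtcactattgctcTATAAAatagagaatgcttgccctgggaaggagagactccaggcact
Mmp12: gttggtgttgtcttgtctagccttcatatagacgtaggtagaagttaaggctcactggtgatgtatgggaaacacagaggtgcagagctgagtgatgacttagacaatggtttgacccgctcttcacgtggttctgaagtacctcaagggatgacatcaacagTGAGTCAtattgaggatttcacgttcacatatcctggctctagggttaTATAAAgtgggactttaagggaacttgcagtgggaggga
Mmp3: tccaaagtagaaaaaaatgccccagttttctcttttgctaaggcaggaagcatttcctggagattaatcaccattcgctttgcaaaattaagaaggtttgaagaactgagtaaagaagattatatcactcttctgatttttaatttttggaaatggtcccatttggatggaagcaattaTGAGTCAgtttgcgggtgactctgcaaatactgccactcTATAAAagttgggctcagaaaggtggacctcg
Mmp10: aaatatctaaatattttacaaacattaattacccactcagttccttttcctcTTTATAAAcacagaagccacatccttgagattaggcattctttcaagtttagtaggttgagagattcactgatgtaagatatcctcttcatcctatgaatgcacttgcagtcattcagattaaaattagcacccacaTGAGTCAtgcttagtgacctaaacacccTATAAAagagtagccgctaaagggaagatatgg
The AP-1 motif began 66 bases upstream of the start in Mmp13, 87 in Mmp12, 71 in Mmp3 and 61 in Mmp10. A promoter window was found for 36 of the 57 members and for 8 of the 13 past the test (not for Adam28, Mmp14, Mmp19, Mmp2 and Mmp9). TGAGTCA stood in 7 of the 36 (19.4%), namely the 4 above and Mmp1, Mmp7 and Plaur, against 4.05% of 33469 rat promoter windows of the same length. TATAAA stood in 13 of the 36 (36.1%, all windows 12.9%), and the ETS-type PEA3 motif AGGAAG in 12 (33.3%, all windows 29.5%). Both strands were searched, and a match describes the sequence only.

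Mmp3, stromelysin 1, cleaves many matrix proteins and activates other proMMPs, and it passed in more tissues than any other member. It read 4.87 and 5.11 in esophagus before and 6.58 and 7.06 after, a rise of 1.83 ± 0.21, or 3.56-fold (adjusted p = 6.33e-05). In oral mucosa Mmp3 went from 8.99 and 8.44 to 10.48 and 10.40, a rise of 1.72 (adjusted p = 2.90e-05), and in vagina from 7.30 and 7.63 to 8.74 and 8.70, a rise of 1.25 (adjusted p = 0.000657). The before and after arrays did not overlap in any of these 3 tissues. In footpad the direction was opposite, from 9.24 and 9.37 to 8.03 and 8.21, a fall by 1.19 (adjusted p = 0.000394). Trachea showed −0.44 and did not pass. The rises stood beside different fibroblast marker values, since none of the 10 markers passed in esophagus and 7 fell in vagina. A relation of Mmp3 to these markers was not tested.

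Mmp10, stromelysin 2, is made by keratinocytes at the front of a wound. In footpad it read 6.47 and 6.80 before and 3.31 and 3.57 after, a fall by 3.19 ± 0.34, or 9.14-fold (adjusted p = 4.53e-06), which ended below the low level. Before transplantation footpad and oral mucosa, at 7.04 and 5.65, were the tissues in which Mmp10 stood above the low level, and vagina, esophagus and trachea lay between 3.26 and 3.94. After transplantation only oral mucosa, at 6.30 and 5.45, was above it. The change in oral mucosa was −0.47 with duplicates that overlapped between the states. It was 0.22 without oral mucosa before replicate 1 and −1.16 without oral mucosa before replicate 2, so no direction can be given there.

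Mmp12, an elastase first known from macrophages, was highest in oral mucosa, with 7.87 and 6.74 before and 8.46 and 8.14 after transplantation. Its rise of 1.00 ± 0.26 (adjusted p = 0.0146) lay at the 2-fold limit, and it was 0.44 without oral mucosa before replicate 2 and 0.84 without oral mucosa after replicate 1, neither past the test. In footpad Mmp12 fell from 5.93 and 6.0 to 4.64 and 4.49, by 1.40 (adjusted p = 0.00076). Of the leukocyte markers, Cd68 was highest in oral mucosa before transplantation, at 7.97 and 7.80, and fell to 5.68 and 6.18 after. Mpeg1 read 4.29 and 4.59 in oral mucosa before and 4.92 and 4.98 after, a change that did not pass. Its mean was above the low level in that group alone, the group in which Mmp12 was highest. Ptprc, Itgam and Csf1r were below the low level in all groups. Among the tissues before transplantation, Mmp12 and Cd68 were both highest in oral mucosa. A relation of Mmp12 to the leukocyte markers was not tested. Mmp13, the main interstitial collagenase of rodents, read 9.76 and 8.79 in oral mucosa before and 7.53 and 6.87 after, and fell by 2.07 ± 0.32 (adjusted p = 0.000275). It did not pass in the other tissues, where its changes were −0.75 in vagina, −0.79 in esophagus, −0.76 in footpad and 0.64 in trachea. The neighbours Mmp13 and Mmp3 therefore moved in opposite directions in oral mucosa. The remaining 5 genes of the cluster (Mmp1, Mmp8, Mmp27, Mmp20 and Mmp7) passed in no tissue.

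**Figure D5:**
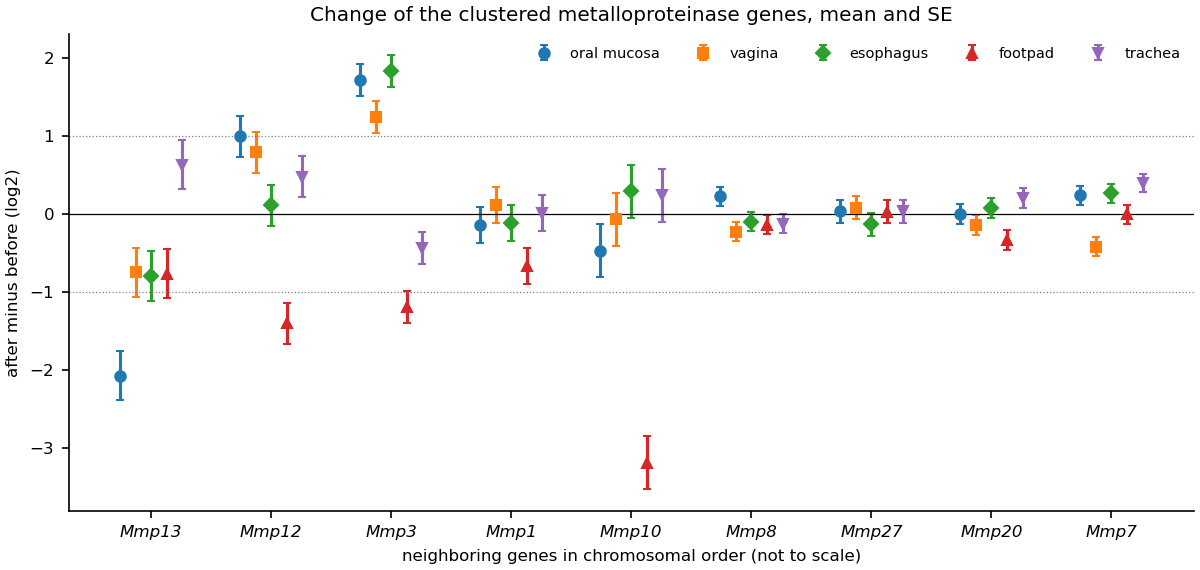
Change after transplantation (after minus before, log2, with the standard error of the fit) of the 9 neighbouring Mmp genes on chromosome 8 in their order, by tissue; dotted lines mark a 2-fold change. Mmp3 is above the upper line in oral mucosa, vagina and esophagus and below the lower line in footpad, while the genes to the right of Mmp10 stay between the lines.

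The gelatinases Mmp2 and Mmp9 cleave basement membrane collagen and denatured collagen, and MMP-14 is the membrane enzyme that activates proMMP-2. Mmp2 went from 7.22 and 7.43 to 6.04 and 5.73 in vagina, a fall by 1.44 ± 0.14 (adjusted p = 7.59e-06). In footpad it went from 7.31 and 7.43 to 6.03 and 5.90 (−1.40, adjusted p = 2.79e-06) and in trachea from 7.70 and 7.33 to 6.20 and 6.29 (−1.27, adjusted p = 5.55e-05). In oral mucosa and esophagus Mmp2 already lay between 5.87 and 6.18 before transplantation, and its changes were 0.22 and 0.26. After transplantation all 10 arrays were between 5.73 and 6.29. The 3 tissues in which Mmp2 fell were those in which the fibroblast markers fell, and Mmp2 is also made by fibroblasts. Whether the change of Mmp2 is linked to that of the markers was not tested.

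Mmp14 fell in vagina, from 9.90 and 9.87 to 8.67 and 8.71, by 1.19 ± 0.09 (adjusted p = 9.50e-07). In footpad it fell from 9.55 and 9.71 to 8.53 and 8.62, by 1.06 (adjusted p = 7.34e-07), a change that was −0.98 and under 2-fold without footpad before replicate 2. Its changes in trachea (−0.60), oral mucosa (−0.18) and esophagus (−0.17) did not pass. Mmp9 read 6.82 and 7.26 in footpad before and 4.93 and 5.02 after, a fall by 2.06 ± 0.19, or 4.17-fold (adjusted p = 1.05e-06), and passed in no other tissue, where it changed by −0.49 to 0.33. Mmp19, an MMP found in epidermal keratinocytes, fell by more than 2-fold in vagina, from 6.01 and 6.25 to 4.81 and 5.04, by 1.21 ± 0.12 (adjusted p = 5.86e-06). Its changes were also below 0 elsewhere but under 2-fold, at −0.58 in trachea, −0.52 in footpad and −0.43 in oral mucosa, each with an adjusted p under 0.05, and at −0.20 in esophagus. The other membrane-type gene to differ between tissues in its response, Mmp15, had changes from −0.56 in vagina to 0.64 in oral mucosa and passed in none.

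Adamts1, a secreted protease of versican and aggrecan, fell in 3 tissues. In footpad Adamts1 read 8.37 and 8.46 before and 5.48 and 5.26 after, a fall by 3.05 ± 0.13, or 8.27-fold (adjusted p = 7.41e-10). In trachea it fell from 8.86 and 8.73 to 7.27 and 7.35, by 1.49 (adjusted p = 6.01e-06), and in oral mucosa from 8.39 and 7.95 to 6.96 and 6.86, by 1.26 (adjusted p = 6.69e-06). Esophagus (−0.35) and vagina (−0.27) did not pass. The 10 arrays before transplantation spanned 7.95 to 8.86, and the 10 arrays after spanned 5.26 to 8.07. Adamts1 fell in oral mucosa, where no fibroblast marker fell, and did not pass in vagina, where 7 fell. The part of fibroblasts in the Adamts1 changes was not tested. The other 10 Adamts genes passed in no tissue, with changes of −0.45 to 0.69.

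Among the ADAMs, Adam28 alone passed. It read 6.0 and 5.38 in esophagus before and 3.57 and 3.51 after, a fall by 2.15 ± 0.18, or 4.44-fold (adjusted p = 4.74e-06), to below the low level. In vagina and trachea its changes were −0.99 and −0.98, and in oral mucosa and footpad, where both states lay between 3.21 and 3.42, they were −0.03 and 0.03. Adam17, the sheddase of TNF and of several EGF receptor ligands, read 8.72 to 9.51 over the 20 arrays and changed by −0.39 to 0.02. Adam9, another sheddase, changed by −0.74 in vagina and trachea and by 0.32 in oral mucosa. The 14 remaining Adam genes other than Adam15, many of them known from testis, changed by −0.43 to 0.43. Adam10, the sheddase of Notch and cadherins, is not analysed here, since no probe set carried its symbol alone.

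The response to transplantation differed between the 5 tissues for 16 of the 57 members (28.1%), where 24% of all symbols passed the same F test with a largest difference between tissues over 1. The largest differences were 4.85 for Timp1, between oral mucosa and footpad, 3.49 for Mmp10 and 3.02 for Mmp3, both between esophagus and footpad, and 2.78 for Adamts1. Each tissue's response was also set against the mean response of the other 4, and the results for vagina and trachea are not reported here. For footpad 9 members passed (11% of all symbols did), with Timp1 (−3.62), Mmp10 (−3.19), Mmp3 (−2.28) and Adamts1 (−2.21) lower and Timp2 (1.97) higher. For oral mucosa 7 passed (all symbols 6.2%), with Timp1 (2.44 ± 0.20) and Mmp3 (1.35) higher and Mmp13 (−1.66) lower. For esophagus 7 passed (all symbols 1.98%), with Timp1 (1.55), Mmp3 (1.5) and Plau (1.46) higher and Adam28 (−1.66) lower. Without the footpad arrays 13 of these 16 members still passed.

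Before transplantation the level differed among the 5 tissues for 12 members (21.1%, against 12.2% of all symbols). The widest were Mmp3 (4.32 between the highest and the lowest tissue), Mmp12 (3.28) and Mmp10 (3.22), followed by Mmp9, Timp2, Mmp13, Adam28, Timp1, Plau, Plaur, Mmp2 and Mmp19 at 2.78 to 1.47. Against the mean of the other 4 tissues, 8 members passed in esophagus (all symbols 1.28%), with Mmp3 (−3.43), Mmp9 (−1.74) and Plau (−1.24) lower and Adam28 (1.70) higher. In oral mucosa 8 members passed (all symbols 4.14%), with Mmp12 (2.66) and Mmp13 (1.81) higher and Timp1 (−1.68) lower. In footpad 4 passed (all symbols 3.01%), with Mmp10 (2.32), Mmp3 (1.97) and Mmp9 (1.73) higher. In trachea 4 passed (all symbols 1.9%), with Timp2 (2.11) and Timp1 (1.31) higher. The comparison for vagina before transplantation is not reported here.

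After transplantation 14 members differed among tissues (24.6%, against 15.6% of all symbols). Timp1 now had the widest range (4.28), followed by Mmp12 (3.81), Mmp3 (3.61), Mmp13 (2.84) and Adamts1 (2.69). Against the mean of the other 4 tissues, 6 members passed in oral mucosa (all symbols 2.29%), with Mmp12 (3.67), Mmp3 (2.58), Mmp10 (2.17), Plat (1.46) and Mmp19 (1.22) higher. In footpad 4 passed (all symbols 5.1%), with Timp1 (−3.91) and Adamts1 (−2.16) lower and Timp2 (1.08) higher. In trachea 5 passed (all symbols 2.52%), with Mmp13 (2.13), Timp2 (1.67), Timp1 (1.45) and Plaur (1.04) higher. In vagina no member passed, where 1.52% of all symbols did. The comparison for esophagus after transplantation is not reported here. Mmp10 and Mmp9, which in footpad had passed as higher than the mean of the other 4 tissues before, did not pass there after. Plat, Mmp15, Adamts1, Mmp28 and Mmp14 passed this test after and not before, whereas Plau, Adam28 and Mmp2 passed before and not after, and a difference between the states in these ranges was not tested apart from the response test above.

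Other genes of these pathways were described from lists. Of 18 measured genes that control plasmin and MMPs outside the members, F3 (tissue factor) fell in oral mucosa (−1.56), vagina (−1.98) and footpad (−2.10), Lrp1, a receptor that clears proteases, fell in vagina (−1.34) and trachea (−1.39), and the broad protease inhibitor A2m fell in vagina (−1.18). Serpine2, an inhibitor of urokinase and thrombin, rose in esophagus (1.09). The list's medians, at −0.12 to 0.01, were near those of all symbols.

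Of 14 membrane serine proteases, convertases and their inhibitors, 8 fell and 1 rose in oral mucosa, with a median of −1.21. Tmprss11d (−2.66) and Tmprss11f (−2.09), airway trypsin-like proteases of stratified epithelia, Prss8 (prostasin, −1.58) and its inhibitor gene Spint1 (−1.56) were among those that fell, and the convertase Pcsk5 rose (1.28). Footpad showed Prss8 (1.65), Spint1 (1.49) and Tmprss11f (1.22) higher and Pcsk7 (−1.18) lower. In vagina Tmprss11f (−1.15), Prss8 (−1.05) and Furin (−1.01) fell and Pcsk6 rose (1.16), in esophagus Tmprss4 (−1.19) and Tmprss11f fell (−1.07), and in trachea Tmprss11f rose (1.06). In footpad, then, Prss8 and Spint1 rose while 9 members fell. In oral mucosa Prss8 and Spint1 fell, as did Mmp13 and Adamts1, while Mmp3, Mmp12 and Timp1 rose. In vagina Prss8 fell, and of the members 5 fell and 1 rose. A relation between these changes was not tested.

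Among 19 measured genes whose proteins ADAMs shed, the EGF receptor ligand genes Ereg (−2.17), Areg (−1.28) and Hbegf (−1.10) fell in oral mucosa, where Adam17 changed by −0.39. These are RNA values, and shedding was not measured. In footpad Nrg1 (−2.25), Tnf (−1.20) and the Notch ligand Jag1 (−1.06) fell and the syndecan gene Sdc4 rose (1.18), and none passed in the other 3 tissues. Of 8 partners that guide or activate ADAMs, the tetraspanin Tspan33 rose (2.44) and Pcsk7 fell in footpad, and none passed elsewhere. Of 11 matrix substrates, Vcan, which encodes the ADAMTS substrate versican, fell in footpad (−3.45), vagina (−1.91) and trachea (−1.53), and Nid2 fell in footpad (−1.06). Vcan is also made by fibroblasts, whose markers fell in the same 3 tissues, and a link between these falls was not tested.

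AP-1 and ETS factors bind motifs such as those searched above, and no RUNX motif was searched. Of 14 measured AP-1, ETS and RUNX factors, Fos fell in oral mucosa (−1.49), vagina (−1.31) and esophagus (−1.51) and rose in footpad (1.83). This was the reverse of the direction of Mmp3 in each of these 4 tissues. In footpad Jun (1.39) and Ets2 (1.61) also rose, and Fosl1 (−1.02), Etv4 (−1.07) and Etv5 (−1.58) fell. Fos and Jun are immediate early genes, and their relation to the member changes was not tested.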

How the data were processed

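RNA of 20 cultures (5 tissues, before and after transplantation, 2 per group) was measured on Affymetrix Rat Gene ST 1.0 arrays from 100 ng RNA. The authors deposited log2 values of 29215 probe sets after RMA in Affymetrix Expression Console (versions: not given in the sources used here). RMA aligns the arrays' distributions and compresses low values. The number of arrays limits the precision. Groups came from the source names of the samples. The sample titles carry Roman numerals, probably culture passages, which differ between the states in all tissues but vagina. If they are passages, passage and transplantation cannot be told apart in those tissues. After transplantation the titles also carry a code, 1 for oral mucosa and vagina and another for esophagus, footpad and trachea. The labels do not explain the code.

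From the deposited log2 values, limma 3.58.1 (R 4.3.3) fitted 10 group means (10 residual degrees of freedom, Benjamini-Hochberg over all 29215 probe sets, adjusted p under 0.05 and change over 2-fold, as in the study's methods). F tests compared tissues before, after and in response. The fit was tested on simulated data. Symbols came from GEO's platform annotation (15310 probe sets with 1 symbol, 323 with several, 13582 unnamed), and all 57 members matched RefSeq GRCr8, which supplied promoters. Shares over all symbols use 1 probe set per symbol. Members and lists were chosen with earlier results of these data known. Named were the members past the test in a tissue, the members called by F tests alone with the largest differences, well-known members, and up to 4 genes per other list and tissue. Alternatives were centring, the tissue's own arrays, trend and robust variance, means over a symbol's probe sets, a low-level filter, leaving out arrays, and replicate blocks.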

Additional observations from a re-analysis of the deposited data

Results flagged for a closer look

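For 16 members the response to transplantation differed between the 5 tissues of origin by limma's F test. The test asked for an adjusted p under 0.05 and a largest difference between 2 tissues over 1 on the log2 scale. The 16 were 28.1% of the members, against 24% of all symbols. The smallest adjusted p was that of Plau (2.88e-08), followed by Timp1 (3.96e-08), Timp2 (1.82e-07) and Adamts1 (1.94e-07). Next came Mmp3 (2.7e-06), Mmp2 (4.73e-06), Mmp14 (3.29e-05), Adam28 (3.51e-05), Mmp9 (4.15e-05) and Adam9 (5.71e-05). The others were Mmp10 (0.000173), Plat (0.000377), Mmp12 (0.000818), Mmp15 (0.00107), Mmp19 (0.00199) and Mmp13 (0.00384). Plat, Mmp15 and Adam9 passed the test of change in no single tissue, and their largest differences of response were 1.64, 1.20 and 1.06.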

How the results depend on the processing

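Of the 24 changes past the test, 22 passed under each alternative that gave a value, and none turned its direction. The 2 others were Mmp12 in oral mucosa (0.86 with each array centred on its median, adjusted p = 0.164 with the 4 oral mucosa arrays alone, 0.44 and 0.84 without a single array) and Mmp14 in footpad (−0.98 without footpad before replicate 2). Centring moved the oral mucosa median over all probe sets from 0.05 to −0.09, and with it 4 members fell in trachea. Without the 40% of probe sets with the lowest mean, no member fell in esophagus, because Adam28 itself was left out. Mmp10 was left out as well, and with it its fall in footpad. The replicate numbers did not pair the samples (correlation of deviations −0.15 in oral mucosa and −0.06 to 0.03 elsewhere). The replicate block kept 16 members with differing responses, and neither it nor the crossed pairing in oral mucosa, added after seeing the data, changed a call.

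Leaving out each array in turn gave 14 to 18 members with differing responses, 12 to 13 with differing levels before and 13 to 14 after, and 0 in the mean response. Members lower were 8 to 9 in footpad, 5 to 6 in vagina, 2 to 3 in oral mucosa, 1 in esophagus and 2 to 4 in trachea, and members higher were 0 to 1, 1, 2 to 3, 1 to 2 and 0. The 4 in trachea came without replicate 2 of either state, the 2 higher in esophagus without esophagus before replicate 1 (Timp1 at 1.00), and the 1 higher in footpad without footpad after replicate 1 or footpad before replicate 2 (Timp2 at 1.12 and 1.09). Changes that were not called and turned sign ranged, without a single array, from −0.093 to 0.13 for Adam17 in trachea (−0.010 centred), −0.065 to 0.061 for Adam17 in vagina, −1.16 to 0.22 for Mmp10 in oral mucosa, −0.13 to 0.0016 for Mmp10 in vagina and −0.0048 to 0.15 for Plaur in vagina. Timp3 ranged from −0.081 to 0.28 in esophagus, −0.061 to 0.20 in footpad and −0.17 to 0.022 in trachea. The cause was not tested. Members of low level and duplicate arrays limit what can be called.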
